A study of Rattus norvegicus with 16 samples.

Results

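UAB30 and 4-methyl-UAB30 (labelled MeUAB30) activate the retinoid X receptor (RXR) and were fed to rats at the same level, and by name they differ in a methyl group at position 4. Of the 16 liver arrays in the series, 8 belong to this comparison, 4 labelled MeUAB30 and 4 labelled UAB30, and they were taken by their titles with no use of a measured value. The animals were female Sprague-Dawley rats whose livers were dissected at 5 weeks of age. MeUAB30 at 200 ppm or UAB30 at 200 ppm was mixed into Teklad mash (4%) and fed for 7 days. The Control group ate the mash with no added compound for a period the labels do not give, and it is used here to place each analog's level. A further group, on Targretin (bexarotene) at 150 ppm for 7 days, entered the choice of probe sets, the summary per gene and the estimate of the spread between arrays. Its level is given below for a single gene, Nr0b2, and it is not compared with the analogs. No label says that the arrays of a diet came from different animals, so a p-value here reflects how far arrays of a diet differed, and some of that spread may be technical. A batch that followed the diets, such as the mixing of the feed, cannot be told apart from the compound.

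RXR is a nuclear receptor that works in pairs, sitting on DNA together with the receptors for retinoic acid, fatty acids (PPAR), oxysterols (LXR), bile acids (FXR) and xenobiotics (CAR and PXR). In the pairs with PPAR, LXR and FXR an RXR ligand can act alone, whereas the pair with the retinoic acid receptor responds mainly when retinoic acid is bound as well. Liver stores and oxidises retinoids, makes bile acids and secretes them with phospholipid and cholesterol, and carries most of the body's drug-metabolising cytochromes P450. The aryl hydrocarbon receptor (AhR), whose targets include the Cyp1 family, belongs to another protein family and pairs with Arnt in place of RXR.

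Levels are given as log2(intensity + 1) per gene, and a difference is MeUAB30 minus UAB30 on that scale. A gene was called, or passed, when its adjusted p in the limma model over all 16 arrays and 12156 genes was under 0.05. Of these genes 169 (1.39%) were called, 85 higher with MeUAB30 (0.699%) and 84 lower (0.691%). Counts for the lists below are to be read beside these shares. The lists were chosen with earlier results of these data known. The change was at least 1.5-fold for 149 of the called genes (1.23% of all) and at least 2-fold for 68, of which 32 were higher and 36 lower. An unadjusted p under 0.05 was found for 1371 genes. The 4 MeUAB30 arrays all lay on 1 side of the 4 UAB30 arrays for 165 of the 169 called genes, and for 1010 of all genes (8.31%), with MeUAB30 above in 567 (4.66%) and below in 443 (3.64%). The median difference over all genes was 0.02, and 53.9% of genes had a positive difference. At the other end, the 95% interval of the difference lay within 1.5-fold either way for 65.3% of genes and within 2-fold for 95.4%. Without MeUAB30 array 2 or 3 the count fell to 91 or 89, and without UAB30 array 2, 3 or 4 it was 86, 97 or 88.

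**Figure D1:**
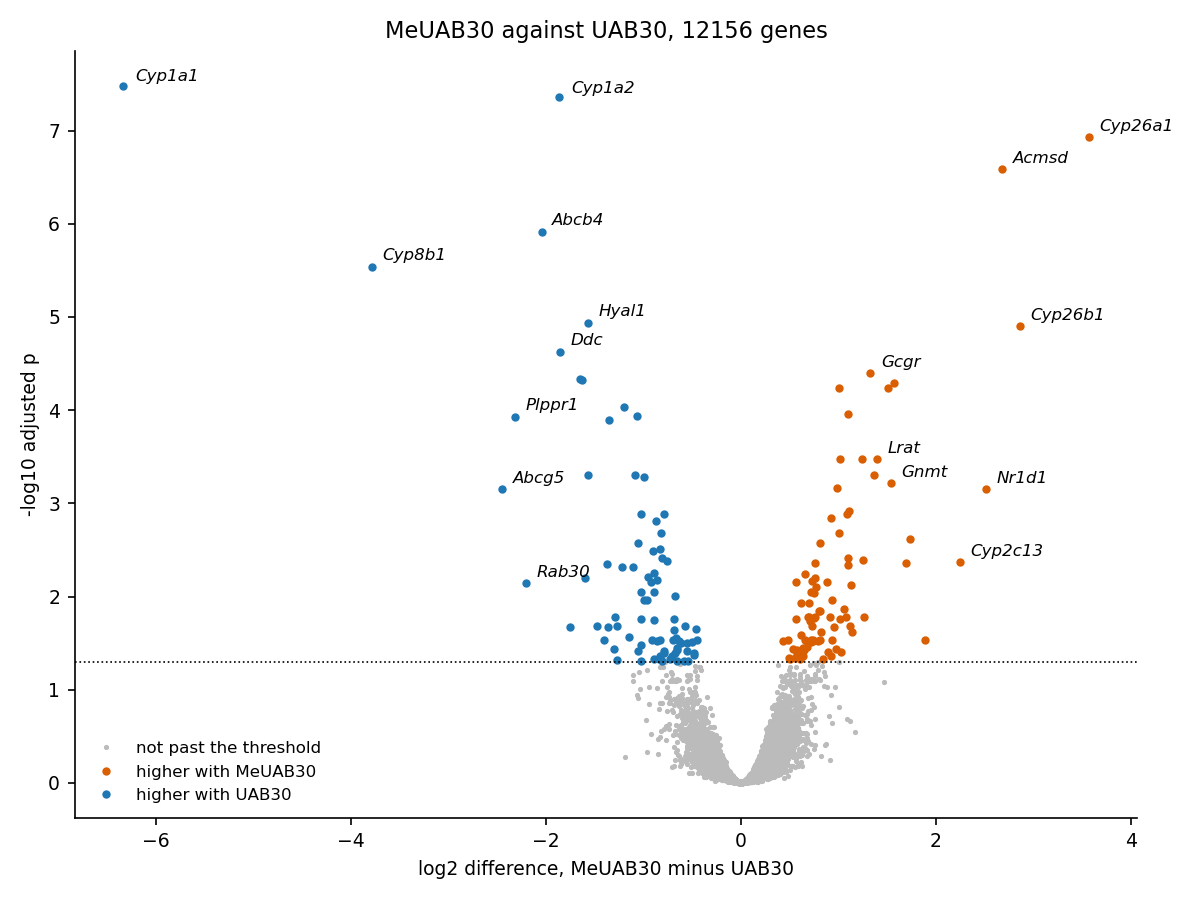
Difference between the analogs (x axis, log2, MeUAB30 minus UAB30) against the adjusted p of the limma test (y axis, −log10) for each of the 12156 genes. Orange points are the 85 genes higher with MeUAB30, blue points the 84 genes higher with UAB30, grey points did not pass, and the dotted line marks an adjusted p of 0.05; Cyp1a1 stands at -6.34 and Cyp26a1 at 3.57.

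The arrays of the 2 analogs had similar scales. The ratio of the 99th percentile of intensity to the median, called the intensity range here, lay between 6.14 and 6.26 (log2) on the UAB30 arrays and between 6.15 and 6.28 on the MeUAB30 arrays. UAB30 array 3 and MeUAB30 array 1 correlated least with the rest of their groups, with mean coefficients over genes of 0.961 and 0.963. Against Control, 10 genes (0.0823%) were called with UAB30 and 1202 (9.89%) with MeUAB30 in the same limma model. Those comparisons share the Control arrays, so for single genes their values are set side by side below and no overlap of their calls is drawn.

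The widest separation of the analogs was in Cyp1a1, the cytochrome P450 that is the standard readout of AhR. Its level was 11.43, 11.94, 12.01 and 11.98 on the UAB30 arrays and 5.63, 5.0, 5.47 and 5.91 on the MeUAB30 arrays. All 4 MeUAB30 arrays lay far below all 4 UAB30 arrays and among or below the Control arrays (6.09 ± 0.42, SD, n = 4). The difference was -6.34 (SE 0.37, 95% interval -7.12 to -5.56, limma adjusted p = 3.29e-08), an 81.0-fold lower level with MeUAB30. Because the MeUAB30 mean lay under the 75th percentile of all probe sets (6.01, an intensity of 63.6), here called dim, the size of this fold is uncertain. Each of the 9 probe sets of Cyp1a1 was lower with MeUAB30, by values from -7.33 to -4.99. Set against Control in the same model, Cyp1a1 differed by 5.75 with UAB30 (adjusted p = 1.64e-07) and by -0.59 with MeUAB30 (adjusted p = 0.381).

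Cyp1a2, the constitutive hepatic member of the Cyp1 family, stood on opposite sides of Control in the 2 diets. The UAB30 arrays read 13.07, 13.0, 13.05 and 13.0 and the MeUAB30 arrays 11.41, 10.98, 11.05 and 11.19, with Control at 12.04 ± 0.11 (SD, n = 4). The groups did not overlap, and the level was 3.66-fold lower with MeUAB30 (difference -1.87, SE 0.12, limma adjusted p = 4.41e-08). Against Control it differed by 0.99 with UAB30 (limma adjusted p = 0.000559) and by -0.88 with MeUAB30 (limma adjusted p = 0.000166). Ugt1a6, a glucuronosyltransferase that AhR induces, had the same order of groups, at 9.33 ± 0.15 with UAB30, 8.34 ± 0.32 in Control and 7.70 ± 0.37 with MeUAB30 (SD, n = 4). Its level was 3.09-fold lower with MeUAB30 (limma adjusted p = 4.75e-05), from 2 probe sets that may also read other Ugt1a transcripts. Cyp1b1, measured by 1 probe set, read 7.81, 7.96, 8.09 and 7.77 with UAB30 and 5.48, 7.21, 6.02 and 6.54 with MeUAB30, where array 2 came nearest to the UAB30 arrays. Its level was 3.03-fold lower with MeUAB30 (limma adjusted p = 0.0063; 0.0548 without UAB30 array 3 and MeUAB30 array 1).

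The receptor itself was lower as well: Ahr read 9.49, 9.39, 9.65 and 9.48 with UAB30 and 8.71, 8.60, 8.44 and 8.67 with MeUAB30. Its level was thus 1.86-fold lower (difference -0.89, limma adjusted p = 0.0177), and all 19 of its probe sets went that way. In all, 5 of the 12 tested genes of the AhR list (41.7%) were lower, beside 0.691% of all genes, and 0 were higher. The median difference of the list was -0.38, beside 0.02 over all genes. Without UAB30 array 3 and MeUAB30 array 1 there were 3 lower, and neither Ahr nor Cyp1b1 passed. Over the alternatives the number of lower genes ran from 3 to 6. The AhR repressor Ahrr (-0.19, 95% interval -0.54 to 0.15) and the dimer partner Arnt (-0.22) did not pass. Nqo1, a quinone reductase induced by both AhR and Nrf2, also did not pass (0.24, 95% interval -0.19 to 0.67, limma adjusted p = 0.753). It was above Control by 1.33 with UAB30 (limma adjusted p = 0.00978) and by 1.57 with MeUAB30 (limma adjusted p = 0.000147).

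Promoter sequence from RefSeq (GRCr8) is shown for Ugt1a6 and Cyp1b1, picked from this list. Each holds the core of the AhR response element, GCGTG, searched on both strands from 250 bases before to 50 after the start. Which other members of the list hold it is not given here. The core is short and stands in 29.7% of the 33469 promoters searched. Of the 134 called genes with a promoter, in either direction, 59 hold the core. The Cyp26a1 promoter also holds it, not in capitals, and that gene was higher with MeUAB30. A match is therefore only a description. The Ugt1a6 stretch is chr9:96194858-96194957 (plus strand) and the Cyp1b1 stretch chr6:21094465-21094564 (plus strand), with each match in capitals, CACGC being the core on the other strand.
Ugt1a6: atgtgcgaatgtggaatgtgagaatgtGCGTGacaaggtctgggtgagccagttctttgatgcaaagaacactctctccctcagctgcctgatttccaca
Cyp1b1: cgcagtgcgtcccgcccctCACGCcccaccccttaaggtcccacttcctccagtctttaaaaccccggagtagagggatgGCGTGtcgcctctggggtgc

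**Figure D2:**
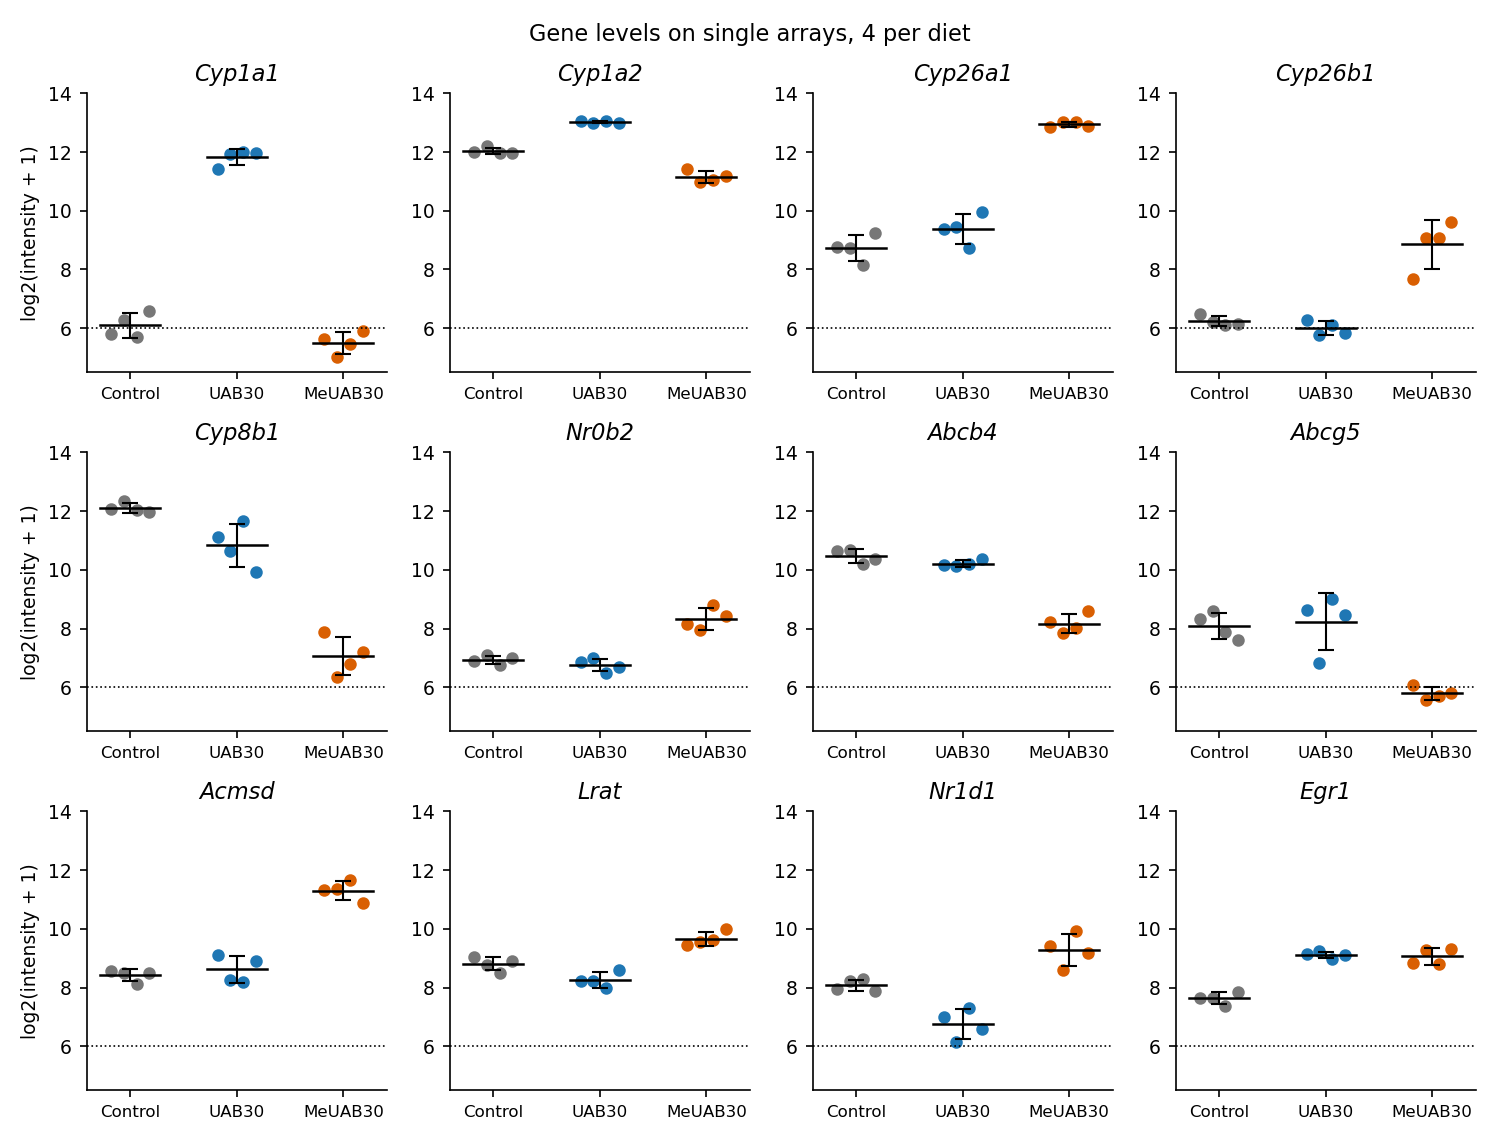
Level of 12 genes (y axis, log2(intensity + 1)) on each of the 4 arrays of the Control, UAB30 and MeUAB30 diets (points), with the mean and SD of each group (bars); the dotted line is the threshold of 6.01 under which a group mean is called dim. Among these 3 diets Cyp1a1 is highest with UAB30, and Cyp26a1, Cyp26b1, Nr0b2 and Acmsd are highest with MeUAB30, while Egr1 is at about the same level with both analogs.

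The opposite pattern was seen in the cytochromes that oxidise retinoic acid. Cyp26a1, the main retinoic acid hydroxylase of liver and a direct target of the retinoic acid receptor, read 9.37, 9.47, 8.72 and 9.96 on the UAB30 arrays and 12.86, 13.03, 13.02 and 12.90 on the MeUAB30 arrays. The MeUAB30 arrays lay close together and above every UAB30 array. Cyp26a1 was 11.9-fold higher with MeUAB30 (difference 3.57, SE 0.24, 95% interval 3.06 to 4.08, limma adjusted p = 1.18e-07), and each of its 8 probe sets was higher, by 3.23 to 4.17. The difference from Control was 0.65 with UAB30 (limma adjusted p = 0.512) and 4.22 with MeUAB30 (limma adjusted p = 2.34e-08). Cyp26b1, a related hydroxylase, read 6.29, 5.77, 6.09 and 5.83 with UAB30, where it was dim, and 7.67, 9.06, 9.06 and 9.64 with MeUAB30. Its groups did not overlap, MeUAB30 array 1 being the nearest to UAB30, and the difference was 2.86 (SE 0.28, limma adjusted p = 1.26e-05), 7.26-fold by the fit.

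Lrat, the acyltransferase that makes retinyl esters for storage, read 8.23, 8.21, 7.97 and 8.61 with UAB30 and 9.46, 9.54, 9.61 and 9.98 with MeUAB30. Lrat was 2.63-fold higher with MeUAB30 (limma adjusted p = 0.000334), with Control (8.81 ± 0.23, SD, n = 4) between the analogs. Lrat also marks hepatic stellate cells, and the mean of the 11 other stellate and fibroblast markers tested, none of which was called, lay between 7.97 and 8.03 on the UAB30 arrays and between 7.98 and 8.0 on the MeUAB30 arrays. In bulk liver a change in the number of cells and a change in the RNA per cell cannot be told apart. Of the 21 retinoid genes tested 3 were higher (14.3%, beside 0.699% of all genes) and 0 lower, with a median difference of 0.12. Rarb, which encodes a retinoic acid receptor and is itself a target in many tissues, differed by 0.02 (95% interval -0.28 to 0.32, limma adjusted p = 0.978). Cyp2c22, a rat P450 that oxidises retinoic acid, differed by 0.38 (95% interval 0.13 to 0.63) with groups that did not overlap (limma adjusted p = 0.156). The binding proteins and dehydrogenases did not pass, among them Rbp4, the plasma retinol carrier (0.12), and Aldh1a1, which makes retinoic acid from retinal (-0.62).

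The Cyp26a1 promoter is shown because its gene had the largest increase. The stretch chr1:244883672-244883821 (GRCr8, plus strand, RefSeq) ends at the base before the start of the gene. Its capitals mark a direct repeat, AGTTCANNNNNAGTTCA on the other strand, at bases -92 to -76 from the start. Repeats of this spacing are a known binding form of the pair of RXR and retinoic acid receptor. The same letters stand in 3 of the 33469 promoters (0.00896%), searched on both strands, and the single AGTTCA in 14.5%. The forms with AGGTCA in either or both places stood in 2 or 3 promoters each, and in 0 of the 134 called genes with a promoter. The form counted is the one that this promoter holds, so its rarity is only a description.
Cyp26a1: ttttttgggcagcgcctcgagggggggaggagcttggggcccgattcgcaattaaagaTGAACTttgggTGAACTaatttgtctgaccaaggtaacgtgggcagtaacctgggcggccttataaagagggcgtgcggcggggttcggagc

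In bile acid synthesis the analogs differed at the branch that sets the kind of bile acid and did not differ detectably at the first step. Cyp8b1, the sterol 12-alpha-hydroxylase needed for cholic acid, read 11.11, 10.63, 11.66 and 9.94 with UAB30 and 7.87, 6.35, 6.78 and 7.21 with MeUAB30. The MeUAB30 arrays lay below all UAB30 arrays, which in turn lay below all Control arrays (11.97 to 12.35). Cyp8b1 was 13.8-fold lower with MeUAB30 (difference -3.78, SE 0.33, limma adjusted p = 2.88e-06, 2 probe sets). Cyp7a1, the rate-limiting enzyme of the pathway, read 8.89, 9.27, 9.19 and 8.95 with UAB30 and 8.45, 8.38, 10.04 and 10.56 with MeUAB30. MeUAB30 arrays 1 and 2 lay below and arrays 3 and 4 above every UAB30 array, and the difference of 0.28 had a 95% interval from -0.53 to 1.10 (limma adjusted p = 0.878). Relative to Control, Cyp7a1 differed by -2.04 with UAB30 (limma adjusted p = 0.0519) and by -1.76 with MeUAB30 (limma adjusted p = 0.0079).

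Nr0b2 (SHP), the receptor-like repressor that FXR induces and that limits bile acid synthesis, read 6.84, 7.0, 6.50 and 6.69 with UAB30 and 8.14, 7.95, 8.80 and 8.43 with MeUAB30. It was 2.97-fold higher with MeUAB30 (limma adjusted p = 5.14e-05), while the UAB30 arrays lay around Control (6.93 ± 0.14, SD, n = 4). With Targretin, at its lower dose, Nr0b2 stood at 8.19 ± 0.24 (SD, n = 4). Acox2, the peroxisomal oxidase of the bile acid side chain, was 1.99-fold lower (limma adjusted p = 0.000526). In total 1 of the 18 bile acid synthesis genes was higher and 2 were lower, with a median of 0.03. Nr1h4, which encodes FXR (0.39), and Cyp27a1, the sterol 27-hydroxylase (-0.22), did not pass.

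In the list of bile salt and anion transport the largest difference was in Abcb4, the canalicular floppase that delivers phosphatidylcholine to bile. It read 10.16, 10.13, 10.19 and 10.38 with UAB30 and 8.24, 7.84, 8.0 and 8.60 with MeUAB30. The 2 groups were separated on each of its 28 probe sets, the UAB30 level was close to Control (10.46 ± 0.23, SD, n = 4), and the MeUAB30 level was 4.12-fold lower (difference -2.04, SE 0.17, limma adjusted p = 1.22e-06). Abcc3, an export pump for bile salts and glucuronides into blood, was 1.85-fold lower (limma adjusted p = 0.0089). Slc22a5, the carnitine transporter, was 1.78-fold lower (limma adjusted p = 0.0471), and its call was kept only without MeUAB30 array 4 when single arrays were left out (adjusted p up to 0.165). These were the 3 lower genes of 16 tested (18.8%, beside 0.691% of all genes), with 0 higher and a median of -0.11. The bile salt export pump Abcb11 (-0.14, 95% interval -0.40 to 0.11) and the uptake carrier Slc10a1 (0.12, 95% interval -0.15 to 0.38) did not pass, and both intervals lie within 1.5-fold either way.

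The drug efflux pump annotated as Abcb1 read 7.81, 8.01, 7.95 and 8.21 with UAB30 and 6.17, 6.13, 6.38 and 6.71 with MeUAB30. Its groups did not overlap, and it was 3.13-fold lower with MeUAB30 (limma adjusted p = 4.65e-05). Its near-identical relative Abcb1b was 2.30-fold lower (limma adjusted p = 9.18e-05), and the signal of this pair may be shared.

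Abcg5 and Abcg8 form the dimer that pumps sterols into bile and are LXR targets in liver. Abcg5 read 8.63, 6.83, 9.02 and 8.47 with UAB30 and 6.08, 5.57, 5.69 and 5.80 with MeUAB30, and Abcg8 read 7.09, 6.14, 8.05 and 7.49 against 6.04, 5.64, 5.79 and 5.40. In both genes UAB30 array 2 was the lowest of its group and still above all MeUAB30 arrays. Abcg5 was lower by 2.45 (SE 0.35, limma adjusted p = 0.000708, 5.46-fold) and Abcg8 by 1.48 (SE 0.31, limma adjusted p = 0.0209, 2.78-fold), with both dim in MeUAB30 and the folds therefore uncertain. The Abcg8 call was lost without any 1 of 5 arrays (MeUAB30 2, 3 or 4, UAB30 3 or 4), up to an adjusted p of 0.0824 over all alternatives. They were the only called genes of 16 in sterol efflux and transport, where the median was 0.00. Abca1, another LXR target that loads cholesterol onto apolipoprotein A-I, differed by -0.33 (95% interval -0.66 to 0.00, limma adjusted p = 0.449). It passed in 2 of 24 alternatives in processing or samples (limma adjusted p down to 0.0305). None of the 20 cholesterol synthesis genes was called, 4 had a positive difference and the median was -0.20, while 6 were lower with the intensity range as a covariate. Among them Cyp51, the lanosterol demethylase, had a difference of -0.56 with no overlap of the groups (limma adjusted p = 0.158).

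The stretch between the divergent starts of these neighbouring genes is shown because both genes were lower and share it. It is chr6:15717731-15717935 (GRCr8, plus strand, RefSeq), 205 bases long, and no motif is marked.
Abcg5 and Abcg8: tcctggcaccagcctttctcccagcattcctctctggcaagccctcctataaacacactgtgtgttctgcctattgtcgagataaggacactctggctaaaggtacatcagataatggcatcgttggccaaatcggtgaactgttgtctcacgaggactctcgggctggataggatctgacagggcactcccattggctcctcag

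In fatty acid synthesis the called genes were all higher with MeUAB30. Acaca, the acetyl-CoA carboxylase of fatty acid synthesis, read 9.81, 9.85, 9.54 and 9.93 with UAB30 and 10.55, 10.97, 11.10 and 10.96 with MeUAB30. The groups did not overlap, all 55 probe sets were higher, and the gene was 2.16-fold higher with MeUAB30 (limma adjusted p = 0.00122). Thrsp (Spot 14), a lipogenic protein induced by thyroid hormone and carbohydrate, read 12.50, 12.0, 12.27 and 12.04 against 13.12, 13.20, 13.28 and 13.14. Its 1.98-fold difference (limma adjusted p = 0.000692) was again without overlap. Pklr, the liver pyruvate kinase, was 1.66-fold higher (limma adjusted p = 0.0209), a call that was lost without MeUAB30 array 2, 3 or 4 or UAB30 array 2 or 4 (adjusted p up to 0.0921). These 3 were the called genes of 16 in fatty acid synthesis, 18.8% beside 1.39% of all genes. A positive difference was found for 13, and the median was 0.46. Without the 4 arrays (1 of each diet) that correlated least with their groups, 7 were called. Scd, the stearoyl-CoA desaturase (0.56, limma adjusted p = 0.0575, no overlap), Srebf1, the regulator of the pathway (0.53, limma adjusted p = 0.378), and Pnpla3, a lipase homologue (0.61, limma adjusted p = 0.359), did not pass. Of 24 alternatives in processing or samples, Scd passed in 10 (limma adjusted p down to 0.00202), Pnpla3 in 2 (down to 0.00651) and Srebf1 in 0.

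The desaturases of polyunsaturated fatty acids went the other way, apart from 1 gene of the same cluster. Fads1, the delta-5 desaturase, read 11.61, 11.30, 11.59 and 11.41 with UAB30 and 10.60, 10.55, 10.77 and 10.86 with MeUAB30, with no overlap. It was 1.72-fold lower (limma adjusted p = 0.00129). Fads2, the delta-6 desaturase, was 1.40-fold lower (limma adjusted p = 0.04) and Elovl2, which elongates their products, was 1.62-fold lower (limma adjusted p = 0.0291). When single arrays were left out, the Fads2 call was kept only without MeUAB30 array 3 (adjusted p up to 0.131) and the Elovl2 call only without MeUAB30 array 2 (up to 0.101). Fads3, whose desaturase acts on sphingoid bases, read 7.74, 7.31, 7.33 and 7.22 against 8.13, 8.98, 8.35 and 8.55 and was 2.15-fold higher with MeUAB30 (limma adjusted p = 0.00384). Of 8 genes in the list 1 was higher and 3 were lower, with a median of -0.06.

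Fatty acid oxidation differed in a few genes. Decr2, the peroxisomal dienoyl-CoA reductase, was 2.0-fold higher with MeUAB30 (limma adjusted p = 0.0021) and Crot, the peroxisomal carnitine octanoyltransferase, 1.77-fold higher (limma adjusted p = 0.0242). The Crot call was lost without MeUAB30 array 2, 3 or 4 or UAB30 array 1, 2 or 3 (up to 0.0891). Crot was above Control with both analogs, by 1.04 with UAB30 (limma adjusted p = 0.0241) and 1.87 with MeUAB30 (limma adjusted p = 5.34e-06). With Acox2 these made 2 higher and 1 lower of 24 peroxisomal genes (median 0.09), and 5 and 4 under quantile normalization. Of 24 mitochondrial genes 0 were higher and 1, Slc22a5, was lower (median 0.02), and Cpt1a, the carnitine palmitoyltransferase of the outer membrane, had a difference of -0.42 (95% interval -0.86 to 0.03). Of 27 other PPAR-alpha targets 3 were higher and 0 lower, with a median of -0.14. Akr1b10, an aldo-keto reductase, read 8.54, 8.29, 8.15 and 8.50 against 9.76, 11.27, 9.80 and 9.59 and was 3.33-fold higher (limma adjusted p = 0.00243), with MeUAB30 array 2 far above the others and 6 of its 8 probe sets higher; above the 90th percentile of intensity the difference was 0.37 (adjusted p = 0.332). The remaining pair were Fabp2, a fatty acid binding protein known from intestine (1 probe set, 2.18-fold, limma adjusted p = 0.00744; 0.52 and an adjusted p of 0.519 with no filter on low values), and Cidec, a lipid droplet protein (1.63-fold, limma adjusted p = 0.0167). The Cidec call was lost without MeUAB30 array 2, 3 or 4 or UAB30 array 2 or 4, up to an adjusted p of 0.0785.

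**Figure D3:**
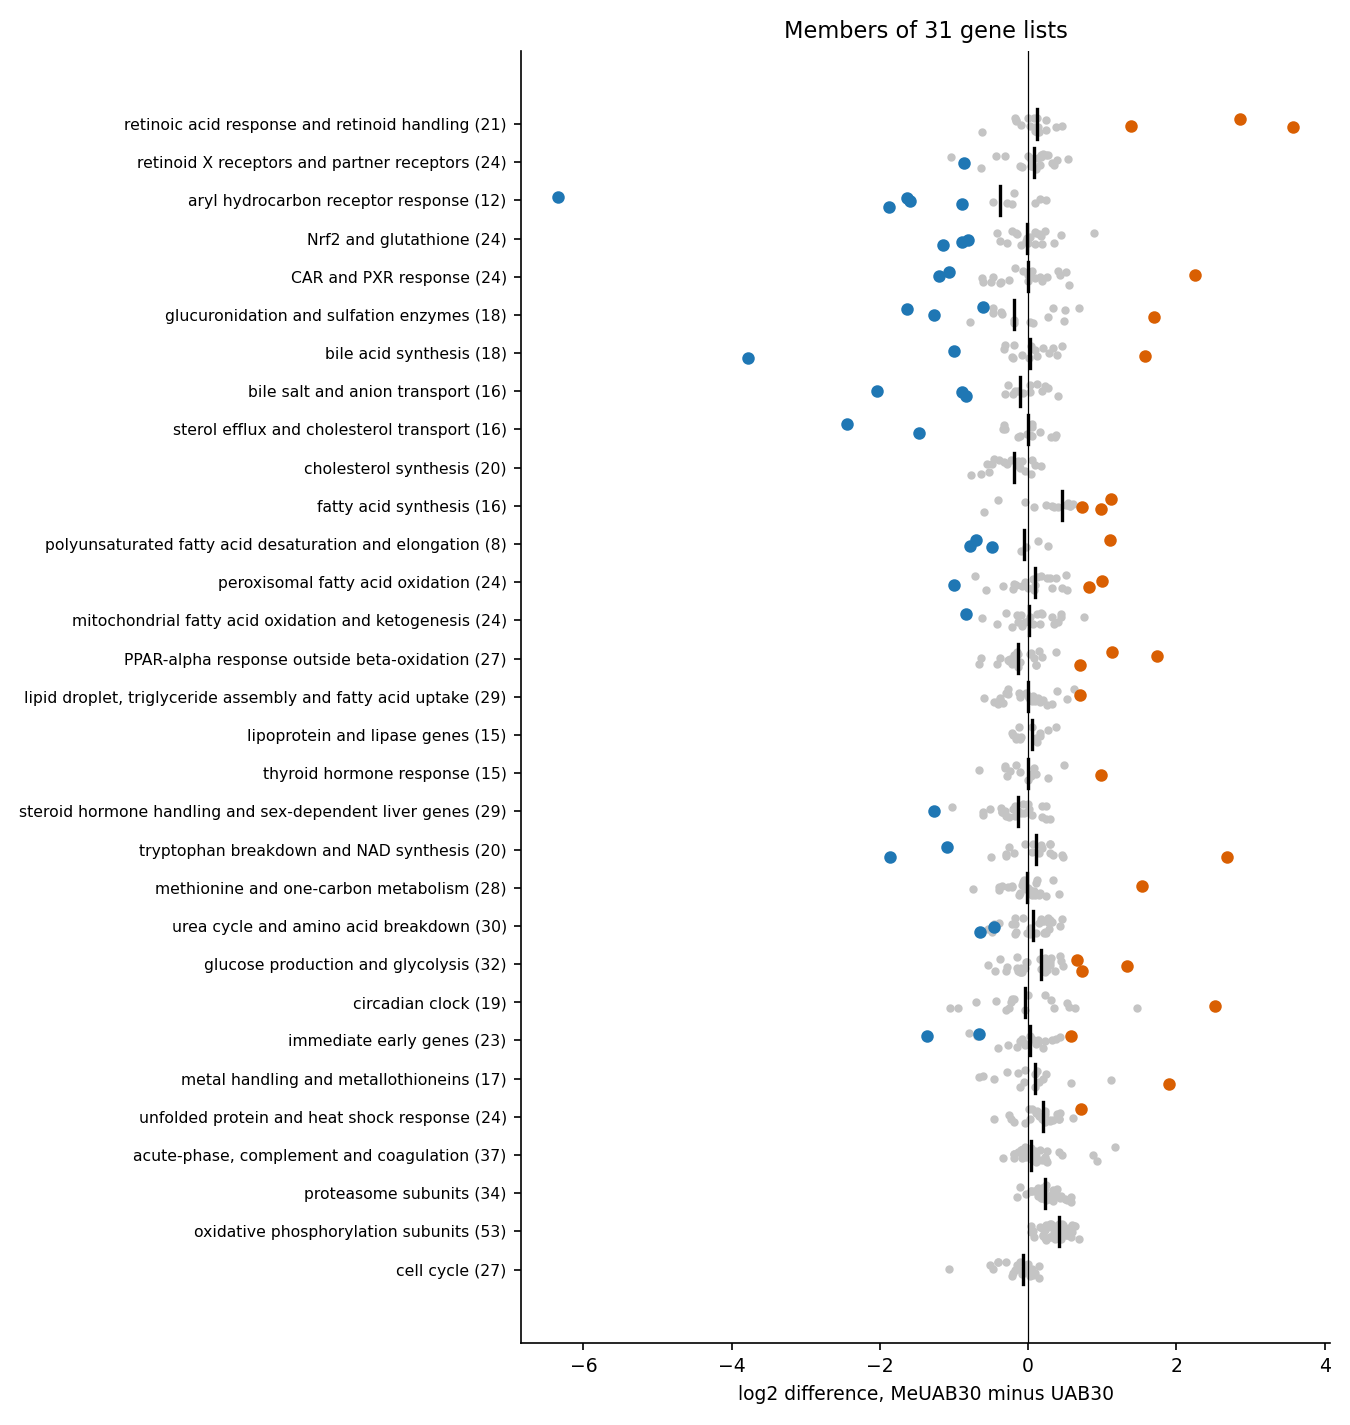
Difference between the analogs (x axis, log2, MeUAB30 minus UAB30) for each tested gene of 31 pathway lists, with the number tested in brackets. Orange points were higher and blue points lower with MeUAB30 at an adjusted p under 0.05, grey points did not pass, and the black bar is the list's median; fatty acid synthesis (0.46) and oxidative phosphorylation (0.42) have the highest medians and the AhR list (-0.38) the lowest.

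Xenobiotic enzymes outside the AhR list differed in both directions. Cyp2c13, a P450 best known from male rat liver, read 6.45, 6.83, 6.07 and 6.78 with UAB30 and 7.91, 7.69, 9.64 and 9.89 with MeUAB30, and was 4.75-fold higher (limma adjusted p = 0.0043). The MeUAB30 arrays fell into a lower and a higher pair, and probe sets of the Cyp2c family can read more than 1 gene; with probe sets kept only above the 90th percentile of intensity, the difference was 0.35 (adjusted p = 0.403). Cyp2a1, a testosterone 7-alpha-hydroxylase, was 2.10-fold lower (limma adjusted p = 0.000114). With Abcb1b these were 1 higher and 2 lower of 24 CAR and PXR genes (12.5% called, beside 1.39% of all genes), and the median was 0.00. Cyp3a23-3a1, the main PXR target among rat P450s, had a difference of 0.26 (95% interval -0.14 to 0.66), and Nr1i3, which encodes CAR, had one of -1.05 with no overlap of the groups (limma adjusted p = 0.0643). Sult1c3, a sulfotransferase, read 10.42, 9.20, 9.26 and 9.81 against 11.04, 11.25, 11.62 and 11.57 and was 3.25-fold higher (limma adjusted p = 0.00437). In the same list of 18 conjugating enzymes Ugt1a6, Ugt2b17 (2.42-fold) and Papss2, which makes the sulfate donor (1.53-fold), were lower. Gstm1, a glutathione transferase (1.75-fold lower, limma adjusted p = 0.0039), Gclc, which makes the glutathione precursor (2.21-fold lower, limma adjusted p = 0.0274), and Abcc3 were the 3 lower of 24 Nrf2 and glutathione genes, with 0 higher. The Gclc call was lost without MeUAB30 array 1, 2 or 3 or UAB30 array 2 or 4 (adjusted p up to 0.114), and that of Ugt2b17 without MeUAB30 array 2 or 3 or UAB30 array 2 or 4 (up to 0.0912).

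Amino acid and methyl metabolism held some of the clearest single differences. Acmsd, the decarboxylase that diverts tryptophan carbon away from NAD synthesis, read 9.11, 8.27, 8.20 and 8.90 with UAB30 and 11.33, 11.37, 11.65 and 10.87 with MeUAB30. All 13 probe sets were separated, and the gene was 6.43-fold higher with MeUAB30 (difference 2.68, SE 0.19, limma adjusted p = 2.61e-07). The UAB30 level was near Control (8.42 ± 0.20, SD, n = 4). In the same list of 20 genes Ddc, the aromatic amino acid decarboxylase, was 3.63-fold lower (limma adjusted p = 2.36e-05) and Aox1, an aldehyde oxidase, 2.13-fold lower (limma adjusted p = 0.000499). Gnmt, the glycine N-methyltransferase that buffers S-adenosylmethionine and is induced by retinoids in rat liver, read 10.79, 10.04, 9.88 and 10.52 against 11.69, 11.86, 11.83 and 12.02. Gnmt was 2.91-fold higher (limma adjusted p = 0.000607) and the only called gene of 28 in methionine and one-carbon metabolism. In the urea cycle and amino acid breakdown Cps1 (1.37-fold) and Got1 (1.57-fold) were the 2 lower of 30, with 0 higher, and the Cps1 call was lost without MeUAB30 array 2 or 3 or UAB30 array 2, 3 or 4 (adjusted p up to 0.102), that of Got1 without any of the 8 arrays (up to 0.148).

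Gcgr, the glucagon receptor, read 9.34, 8.87, 8.97 and 8.93 with UAB30 and 10.08, 10.55, 10.46 and 10.34 with MeUAB30. It was 2.51-fold higher (limma adjusted p = 3.98e-05) with no overlap. With Pklr and Khk, the ketohexokinase (1.58-fold, limma adjusted p = 0.0295; lost without MeUAB30 array 2, 3 or 4 or UAB30 array 2, 3 or 4, up to 0.122), it made up the 3 higher of 32 genes of glucose production and glycolysis, with 0 lower and a median of 0.17. Igfbp2, an insulin-like growth factor binding protein, was 2.84-fold higher (8.68 ± 0.32 against 10.18 ± 0.29, SD, n = 4, limma adjusted p = 5.73e-05).

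Nr1d1 (Rev-erb-alpha), the haem-binding repressor of the circadian clock, read 7.0, 6.14, 7.30 and 6.60 with UAB30 and 9.42, 8.58, 9.93 and 9.19 with MeUAB30. The groups did not overlap, and the Control arrays (7.87 to 8.27) lay between them. Nr1d1 was 5.73-fold higher with MeUAB30 (difference 2.52, SE 0.36, limma adjusted p = 0.000708). It was the only called gene of 19 in the clock list, whose median was -0.04. Dbp, a clock output gene driven by CLOCK and BMAL1, differed by 1.47 (limma adjusted p = 0.0823) and Bmal1, which Nr1d1 represses, by -1.05 (limma adjusted p = 0.122), both without overlap of the groups. The labels give no time of day for the dissections, and the part of sampling time was not tested.

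Among the 23 immediate early genes tested 1 was higher and 2 were lower, 13.0% beside 1.39% of all genes, and the median was 0.02. Zbtb16, a zinc finger repressor induced by glucocorticoids, read 9.68, 8.40, 9.78 and 8.84 with UAB30 and 8.08, 8.0, 7.09 and 8.06 with MeUAB30. Zbtb16 was 2.58-fold lower with MeUAB30 (limma adjusted p = 0.0212), a call lost without MeUAB30 array 3, UAB30 array 1 or UAB30 array 3 (up to 0.0897). Above Control it stood by 1.76 with UAB30 (limma adjusted p = 0.0176) and 0.40 with MeUAB30 (limma adjusted p = 0.465). Jun, a subunit of AP-1, was 1.58-fold lower (limma adjusted p = 0.028) and Cebpb, a liver bZIP factor, 1.5-fold higher (limma adjusted p = 0.0401), and when single arrays were left out these calls were kept only without UAB30 array 3 (Jun, up to 0.10) and only without UAB30 array 1 (Cebpb, up to 0.161). Egr1, an early growth response factor, differed by -0.06 between the analogs (95% interval -0.39 to 0.28). Egr1 was above Control by 1.49 with UAB30 (limma adjusted p = 0.000215) and 1.43 with MeUAB30 (limma adjusted p = 3.37e-05). Bhlhe40, a clock-linked repressor, differed by 0.31 between the analogs (95% interval -0.07 to 0.70), with all MeUAB30 arrays above all UAB30 arrays. It stood above Control by 1.06 with UAB30 (limma adjusted p = 0.0241) and 1.38 with MeUAB30 (limma adjusted p = 0.000166). Cyp2c22 stood above Control by 0.98 with UAB30 (limma adjusted p = 0.000613) and 1.35 with MeUAB30 (limma adjusted p = 2.17e-06). For Egr1, Bhlhe40, Cyp2c22 and Nqo1 the difference between the analogs did not pass, which does not show equal levels with both analogs.

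Mt2A, a metallothionein, varied widely within UAB30 (11.05, 9.15, 11.75 and 10.16) and less with MeUAB30 (13.20, 11.87, 12.52 and 12.10). Its 3.72-fold difference passed (limma adjusted p = 0.0295) and was lost without MeUAB30 array 1 or 3 or UAB30 array 2 or 4 (up to 0.107). Herpud1, a component of endoplasmic reticulum degradation, was 1.64-fold higher (limma adjusted p = 0.00889), the only called gene of 24 in the unfolded protein list, whose median was 0.20.

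Among RXR, its partners and their coregulators a single gene was called. Rxra, the main RXR of liver, read 10.88 ± 0.06 with UAB30 and 10.93 ± 0.09 with MeUAB30 (SD, n = 4). The arrays overlapped, and the difference of 0.04 had a 95% interval from -0.17 to 0.26. Of 24 RXR, partner and coregulator genes 0 were higher and 1 was lower (4.17% called, beside 1.39% of all genes, median 0.08). That gene was Ppargc1a, a coactivator of mitochondrial and gluconeogenic genes (1.82-fold lower, limma adjusted p = 0.0298), whose call was lost without MeUAB30 array 1, 2 or 3 or UAB30 array 1, 3 or 4 (up to 0.114).

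**Figure D4:**
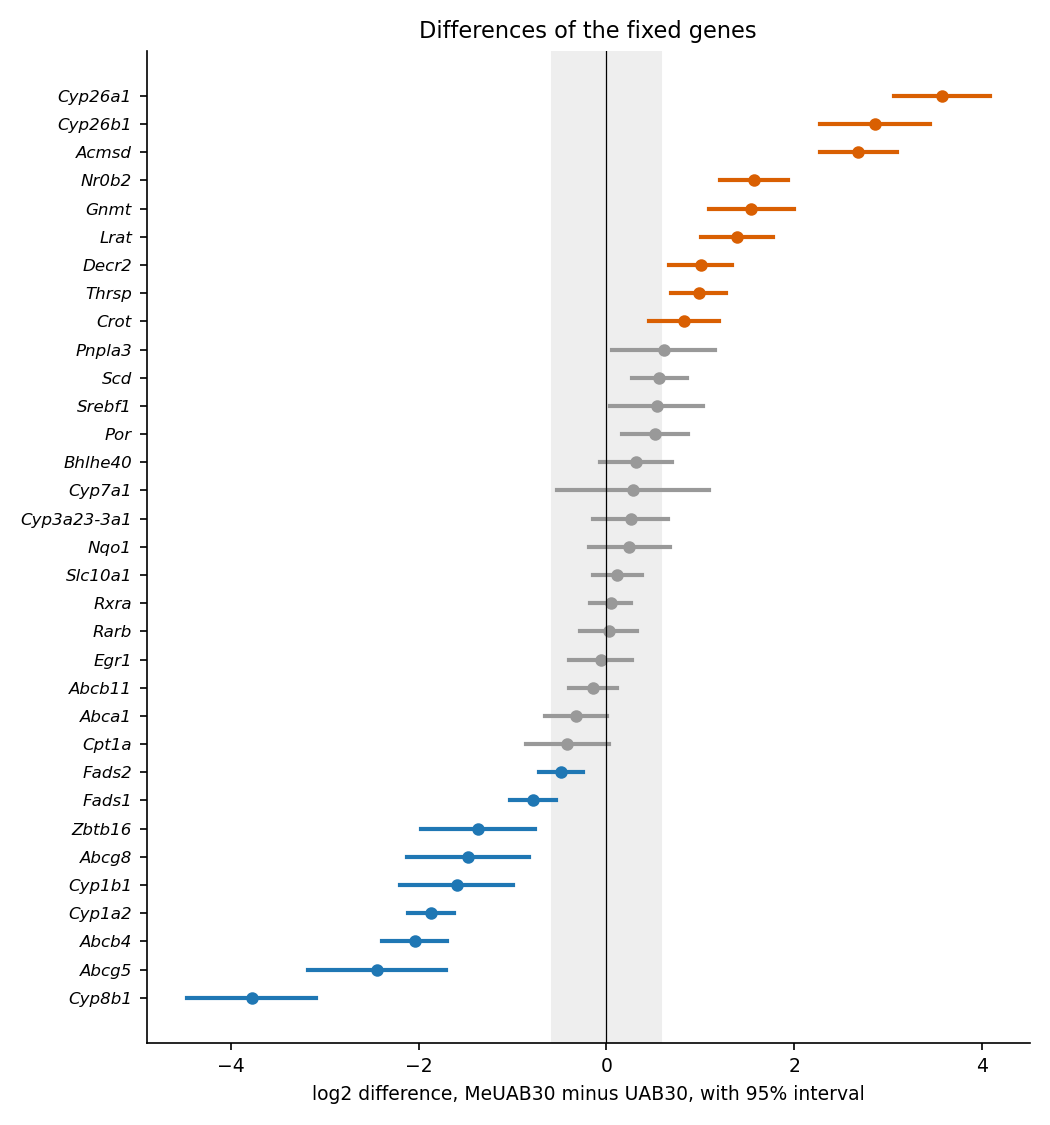
Difference between the analogs (x axis, log2, MeUAB30 minus UAB30) with its 95% interval for 33 of the 34 tested genes of a fixed list, Cyp1a1 (-6.34) being left off for scale. Orange genes were higher and blue genes lower with MeUAB30, grey genes did not pass, and the grey band spans 1.5-fold either way, within which the intervals of Rxra, Rarb, Egr1, Abcb11 and Slc10a1 lie.

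None of the subunits of oxidative phosphorylation was called. All 53 tested genes had a positive difference, with a median of 0.42 beside 0.02 over all genes and a highest value of 0.68. In 9 of them the groups did not overlap, beside 567 of all genes (4.66%) with MeUAB30 wholly above. The mean level of the list was 9.76, 9.31, 9.32 and 9.52 on the UAB30 arrays. It was 9.69, 9.87 and 9.88 on MeUAB30 arrays 1 to 3 and highest on array 4, so UAB30 array 1 lay above MeUAB30 array 1. The intensity range moved with it, at 6.26, 6.15, 6.14 and 6.23 on the UAB30 arrays and 6.15, 6.22, 6.24 and 6.28 on the MeUAB30 arrays. With the intensity range as a covariate the median was 0.34, 51 of 53 differences were positive and 8 genes passed. Over the alternatives the number that passed ran from 0 to 25. Proteasome subunits had 31 of 34 positive differences, a median of 0.23 and no call, and their array means overlapped (8.76 to 9.29 with UAB30, 9.07 to 9.45 with MeUAB30). With the covariate that median was 0.12.

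**Figure D5:**
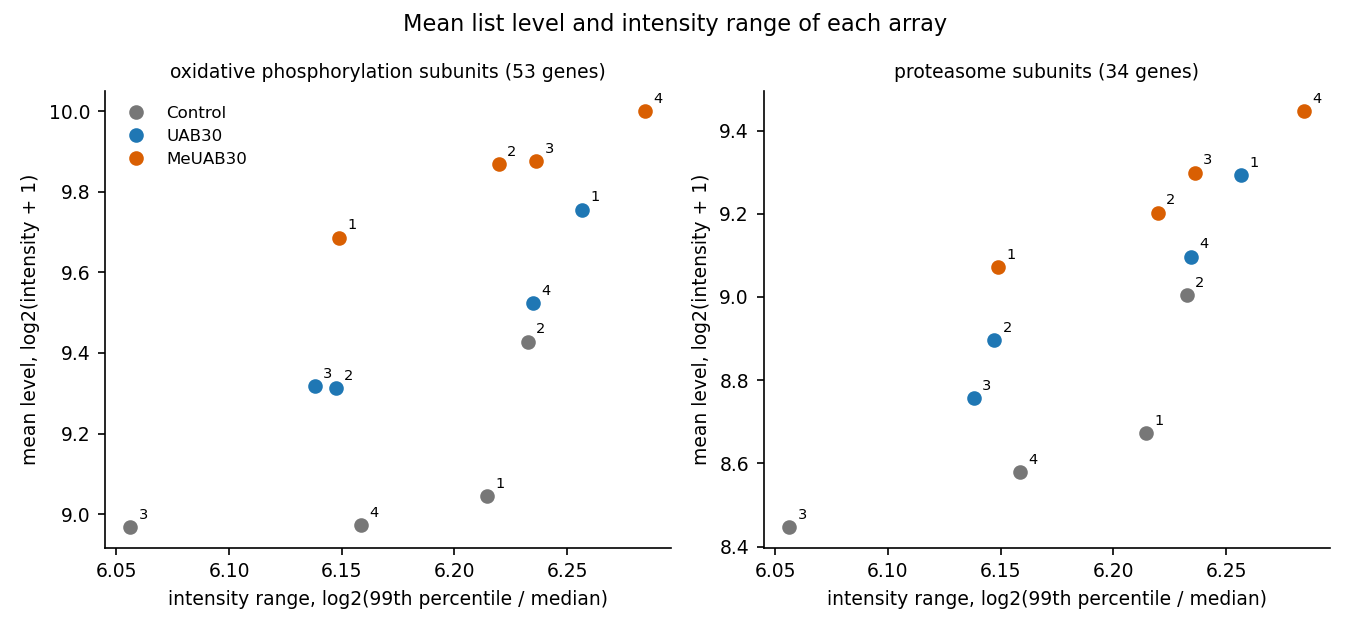
Mean level of the oxidative phosphorylation list and of the proteasome list (y axes, log2(intensity + 1)) against the intensity range of each array (x axes, log2 of the 99th percentile over the median), with the replicate number beside each point. Within each diet the list means are higher on arrays with a wider range, apart from UAB30 arrays 2 and 3, which are nearly equal in the first panel, and MeUAB30 points lie above UAB30 points of like range.

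Markers of cell types were checked for the whole liver sample. The 10 hepatocyte markers tested had array means between 13.01 and 13.09 with UAB30 and between 12.92 and 12.94 with MeUAB30, with 0 higher and 1 lower (Cps1). Every MeUAB30 mean thus lay below every UAB30 mean. In 5 of the 10 markers all MeUAB30 arrays lay below all UAB30 arrays, beside 3.64% of all genes. A positive difference was found for 2, and the median was -0.19. The array means of Kupffer cell and macrophage markers overlapped, at 8.35 to 9.05 and 8.51 to 8.79, and none of the 13 was called. No marker of endothelial cells, cholangiocytes, lymphocytes, neutrophils, erythroid cells, exocrine pancreas, adipocytes or skeletal muscle was called. Of 11 pericentral hepatocyte genes 1 was higher (Tbx3, a transcription factor of the zone, 1.10) and 3 were lower: Cyp1a2, Cyp8b1 and Slc1a2, a glutamate transporter (-1.37). Of 14 periportal genes 0 were higher and 1, Cps1, was lower, with a median of -0.28. The periportal count depended on the scaling, with 6 lower under quantile normalization or with arrays centred on their median, and 7 lower with the intensity range as a covariate. The pericentral median was -0.03. The part of zonal makeup in the differences above was not tested.

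Lipoprotein and lipase genes (15), acute-phase, complement and coagulation genes (37) and cell cycle genes (27) had no call in either direction, with medians of 0.05, 0.03 and -0.06. Among the 29 genes of steroid handling and sex-dependent expression Cish, a suppressor of cytokine signalling, was lower (2.41-fold, limma adjusted p = 0.048), a call lost without MeUAB30 array 2 or 4 or any UAB30 array (up to 0.151), and the median was -0.13.

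Outside the lists the largest differences were mostly decreases. Plppr1, a membrane protein related to lipid phosphatases, read 7.58, 7.57, 7.42 and 7.88 with UAB30 and 5.68, 5.10, 5.40 and 5.02 with MeUAB30, where it was dim. The groups were far apart, and it was 4.97-fold lower by the fit (limma adjusted p = 0.000117). Rab30, a small GTPase of the Golgi, was 4.61-fold lower (8.97 ± 0.44 against 6.77 ± 0.54, SD, n = 4, limma adjusted p = 0.00716). Hyal1, a lysosomal hyaluronidase, read 10.02, 10.10, 9.95 and 10.32 against 8.39, 8.39, 8.43 and 8.89 and was 2.97-fold lower (limma adjusted p = 1.15e-05). Rnf125, a ubiquitin ligase, was 2.96-fold lower (limma adjusted p = 0.000499) and Slc25a30, a mitochondrial carrier, 3.37-fold lower (limma adjusted p = 0.0215; lost without MeUAB30 array 2 or 4 or UAB30 array 2 or 4, up to 0.0987). Gria3, a glutamate receptor subunit, was 2.59-fold higher (limma adjusted p = 0.000499, or 0.0546 with probe sets kept only above the 90th percentile). Its level was 6.12 ± 0.15 with UAB30, 7.49 ± 0.37 with MeUAB30 and 5.80 ± 0.32 in Control (SD, n = 4), where it was dim. Its probe sets may have passed the filter on low values only through the MeUAB30 arrays, and the fold is uncertain. The call was kept with no filter on low values. Nupr1, a stress-induced nuclear protein, was 2.40-fold higher (limma adjusted p = 0.0167). That call was lost without MeUAB30 array 2 or 3 or UAB30 array 2, 3 or 4 (up to 0.0672).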

How the data were processed

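Liver RNA of 16 rat samples was measured on Affymetrix rat exon arrays with whole-transcript labelling, per the labels' protocols. The deposited values are 1 linear intensity per probe set and array for 887828 probe sets, with 0 missing values and array medians from 22.2 to 23.8; how the authors summarised probes, corrected background and normalized is not given in the sources used here. Per the submitters' processing notes, the build was rn4. The platform annotation paired 177688 probe sets (20.0%) with 1 gene symbol, 2920 with several and 707220 with none, and symbols were updated through RefSeq (11393 current, 3454 updated, 56 kept).

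Intensities were taken as log2(intensity + 1), which shrinks changes of low genes. Probe sets with 1 symbol and a mean over 16 arrays at or above the 75th percentile (6.01) were kept, 103692 in all, and summarised by median polish to 12156 genes (median 6 probe sets each). In R 4.3.3, with version 1.17.8 of the data.table package, limma 3.58.1 fitted a mean per diet over the 16 arrays (lmFit) and moderated the variances (eBayes). Its two-sided p-values got a Benjamini-Hochberg adjustment per contrast, with a threshold of 0.05. The median standard error of a difference was 0.166; arrays carry no counts, so their number limits the precision. On simulated data for this comparison (12156 genes), the test found 30% of planted 1.5-fold changes, 80% at 2-fold and 100% at 4-fold, and 6.96% of its calls had no planted change. The simulated noise was drawn independently for each gene, without variation that the genes of an array share, so these shares may not hold for the real arrays. Only 1 pair of compounds was compared at a matched dose.

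The genes named are the top 15 higher and top 15 lower by size among called genes whose groups did not overlap, up to 3 called members of each of 31 pathway lists by adjusted p, and 37 fixed genes, of which 34 were tested. Others named are members of those lists and of 13 marker lists, and the genes of the other observations, which were chosen after their values were seen. The members, the lists and the fixed genes were chosen with earlier results of these data known. Lists were described by counts and medians, with no list test. Promoters came from RefSeq (GRCr8), where 62 of the 74 named genes matched; those of Cyp1a1 and Acmsd were not used here. Alternatives changed the pseudocount, filter, normalization, summary, weights, prior, samples and covariates.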

Additional observations from a re-analysis of the deposited data

Results flagged for a closer look

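In the 74 named genes, 16 of 222 groups of 4 arrays (UAB30, MeUAB30 or Control) held an array far from the other 3, with a gap above Dixon's 95% critical value; chance flags about 1 group in 20. With MeUAB30, array 2 was high for Akr1b10 (11.27, the others 9.59 to 9.80) and Bhlhe40 (11.07, the others 10.65 to 10.68). MeUAB30 array 4 was high for Ddc (7.89, the others 7.08 to 7.16) and Hyal1 (8.89, the others 8.39 to 8.43), array 3 was low for Zbtb16 (7.09, the others 8.0 to 8.08) and array 1 low for Rarb (9.08, the others 9.62 to 9.69). With UAB30, array 1 was low for Cyp1a1 (11.43, the others 11.94 to 12.01) and high for Jun (8.54, the others 8.08 to 8.14), and array 3 was high for Bhlhe40 (10.61, the others 10.38 to 10.42). For the called genes among these the UAB30 and MeUAB30 arrays still did not overlap.

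In Control, array 2 was high for Nupr1 (8.48, the others 7.67 to 7.77), Cyp1a2 (12.20, the others 11.98 to 12.01), Gstm1 (11.55, the others 11.16 to 11.20) and Slc10a1 (11.79, the others 11.42 to 11.42). Control array 3 was low for Plppr1 (7.64, the others 8.47 to 8.63), Rnf125 (9.73, the others 10.56 to 10.67) and Rarb (8.95, the others 9.26 to 9.32). Control arrays enter the difference between the analogs through the choice of probe sets, the summary per gene and the shared estimate of the spread.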

How the results depend on the processing

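Over 24 alternatives no called named gene changed direction, while Cyp7a1 (-0.12 to 0.62), Rarb (-0.04 to 0.18), Egr1 (-0.15 to 0.03) and Rxra (-0.02 to 0.11), none of them called, crossed 0. In all, 34 of the 59 called named genes passed under each alternative in which they were tested. The count of called genes, 169, moved beyond 1.5 times with quantile normalization (487, and 240 of at least 1.5-fold), arrays centred on their median gene value (371 and 231), array weights (1337 and 470), a covariate for the intensity range (726 and 299), without the 4 arrays that correlated least with their groups (338 and 237) and without UAB30 array 3 and MeUAB30 array 1 alone (99 and 98). Both settings at the end of this series have fewer samples, and their counts moved in opposite directions. The cause of these moves was not tested. The share of higher calls was 50.3%, and 62.9% with array weights. Leaving out 1 array at a time gave 86 to 166 calls, 84 to 154 of at least 1.5-fold, and 39.1% to 66.0% higher, the extremes of that share being without MeUAB30 array 4 and without MeUAB30 array 1, while it was 64.5% without UAB30 array 1. Same-numbered arrays did not deviate together (correlations -0.22, -0.09, -0.21 and 0.32), so the replicate numbers were taken not to pair the samples; with the number as a block 136 genes passed, 127 of them among the 169. The other alternatives kept the count between 141 (filter at the 50th percentile) and 214 (the 8 arrays alone), and the alternatives of pseudocount, prior and summary gave 156 to 198. Genes dim in a group, such as Cyp1a1 and Abcg5 with MeUAB30, have folds limited by signal near background. Scan dates and background correction could not be varied.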

Other observations

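The following called genes were chosen after their values were seen. Slc2a5, the fructose transporter, was at 6.43 ± 0.07 with UAB30 and 7.69 ± 0.62 with MeUAB30 (log2 level, SD, n = 4, limma adjusted p = 0.00404). Gpi, the phosphoglucose isomerase, was higher by 0.93 (limma adjusted p = 0.00143), Akt1, the insulin-responsive kinase, by 0.88 (limma adjusted p = 0.0069) and Klf15, a factor of fasting metabolism, by 1.08 (limma adjusted p = 0.0168). Car3, a cytosolic carbonic anhydrase of liver and fat, differed by -1.40 and Sult1c2a, a sulfotransferase, by -0.83.

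Among called genes some stood next to each other on the chromosome, by the order of protein-coding genes in RefSeq (GRCr8). Of 7468 adjacent pairs in which both genes were tested, both were called in 9 pairs, 7 with the same direction and 2 with opposite directions, over 16 genes. On chromosome 4 Crot (0.83) was higher with MeUAB30 beside Abcb4 (-2.04) and Abcb1b (-1.20), which were lower. On chromosome 1 Fads3 (1.10) was higher beside Fads2 (-0.48) and Fads1 (-0.78), which were lower. The remaining pairs were Cyp1a2 with Cyp1a1 (chromosome 8), Abcg8 with Abcg5 (chromosome 6), Slc25a10 (0.76), a mitochondrial dicarboxylate carrier, with Gcgr (chromosome 10), Tmem176b (0.84) with Tmem176a (0.68) and Nln (0.75) with Sgtb (0.95).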
